A study of Caenorhabditis elegans with 4 samples.

Results

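The subject is a group of 10 antimicrobial peptide genes of the epidermis of the nematode Caenorhabditis elegans: nlp-27, nlp-28, nlp-29, nlp-30, nlp-31 and nlp-34, named for neuropeptide-like proteins, and cnc-1, cnc-2, cnc-4 and cnc-6, named for caenacins. They were taken by name from the 20341 genes that could be named on the arrays, through the sequence name of each probe. The rule names the genes and uses no threshold on their values, but the group was picked with earlier results of these data known. Of the 10 genes, 8 gave signal above background and were tested among 13685 genes.

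On each of 4 two-colour Agilent arrays, RNA of isp-1(qm150);ceh-23(ms23), the double mutant, was hybridised in one dye against RNA of isp-1(qm150) in the other. Both genotypes carried qm150, an allele of isp-1, which encodes the Rieske protein of respiratory complex III, and only the double mutant carried ms23, an allele of the homeodomain gene ceh-23, so neither genotype is wild type. Synchronized worms were raised at 20 C on OP50 bacteria and collected whole as mid-L4 larvae. Worms of 3 biological replicates were used; RNA of replicate 1 was also hybridised with its dyes flipped, and its 2 arrays were averaged (n = 3).

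The epidermis of the nematode makes its own defence peptides. Fungal infection by Drechmeria coniospora and wounding raise nlp-29 and its neighbours through a receptor, a G protein, a protein kinase C and the p38 MAP kinase cascade that ends in PMK-1, while cnc-2 depends on the TGF-beta ligand DBL-1, released by neurons. Loss of certain cuticle collagens and high salt also raise nlp-29. Neither infection nor wounding was part of the design here, so the values below are levels in unchallenged larvae on a bacterial lawn.

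A log2 ratio is the double mutant over isp-1, so a positive value means more signal in the double mutant. Levels are background-corrected, normalized intensities in arbitrary units, averaged over all probes of a gene. For them, average intensities of the 4 arrays were also set to a common distribution by quantile normalization. Overlaps of levels between arrays depend on this step. Levels were compared between genotypes for the same gene and never between genes, whose probes differ. RNA came from whole animals, in which fewer epidermal cells and less RNA per cell cannot be told apart. Over the arrays and channels, the 43803 spots that were not controls had a median signal of 109.5 to 258.5 and a median local background of 38 to 63, and none was saturated. For ceh-23 itself 1 probe was present, at -0.09 (SD 0.10, n = 3), and it was well above background on 2 of 4 arrays in each genotype. Where it lies relative to the ms23 lesion is not given in the sources used here, so it checks neither label.

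None of the 8 antimicrobial peptide genes tested passed an adjusted p of 0.05 in limma, against 461 of 13685 genes, or 3.37% of all genes tested. Higher levels in the double mutant accounted for 106 of those calls, 0.775% of genes, and lower levels for 355, or 2.59%. The threshold cut through a crowd of nearly equal values: 459 of the 461 genes called had an adjusted p between 0.049 and 0.05. At an unadjusted p of 0.05, 3 of the 8 members passed (nlp-27, nlp-28 and cnc-4, all lower in the double mutant), against 35.9% of all genes in either direction and 22.3% lower in the double mutant. The same 3 genes had one sign on all 4 arrays, as did 46.2% of all genes, and 25.3% of all genes were lower on all 4. The median log2 ratio of the 8 genes was 0.02, with 4 below 0 and 4 above, and that of all genes was -0.01.

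**Figure D1:**
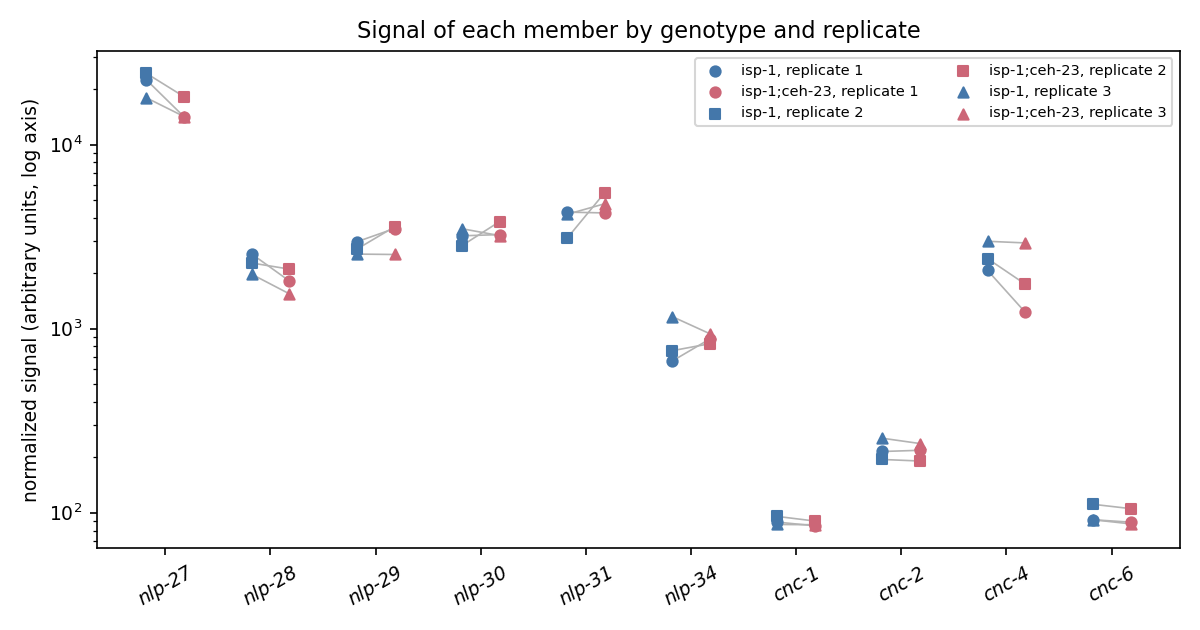
Normalized signal (arbitrary units, log axis) of the 10 antimicrobial peptide genes in isp-1 (blue) and isp-1;ceh-23 (red), with a line joining the 2 values of each replicate (symbols, n = 3). For nlp-27 the lines slope down in all 3 replicates, from between 17930 and 24340 to between 14110 and 18150, and cnc-1 and cnc-6 lie at the bottom, where no array was well above background; heights of different genes are not comparable.

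The gene nlp-27, at one end of the nlp cluster, had the most negative ratio of the group. Its level was 22450, 24340 and 17930 in isp-1 in replicates 1, 2 and 3, and 14110, 18150 and 14170 in the double mutant. Every replicate was lower in the double mutant, although the double mutant of replicate 2 overlapped isp-1 of replicate 3. The log2 ratios were -0.67, -0.42 and -0.34, with a mean of -0.48 (SD 0.17, 95% interval -0.75 to -0.21, limma adjusted p = 0.0576), or 1.39-fold less signal. Averaged over its 2 probes, both arrays of replicate 1 gave close values, -0.66 and -0.68 with the dyes exchanged. Taken singly, the probes moved in opposite directions. With the dyes flipped they read -0.757 and -0.565, against -0.545 and -0.811 before that flip. The 2 probes had means of -0.53 and -0.43. The first stood at -0.65, -0.22 and -0.72 in replicates 1, 2 and 3, and the second at -0.69, -0.63 and 0.04. The probes of nlp-27 thus disagreed in replicates 2 and 3.

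Next to it lies nlp-28, another glycine-rich peptide gene of the cluster. Its level was 2548, 2273 and 1976 in isp-1 and 1814, 2105 and 1545 in the double mutant, lower in each replicate, although the double mutant of replicate 2 lay above isp-1 of replicate 3. The mean log2 ratio of nlp-28 was -0.32 (SD 0.19, n = 3, limma adjusted p = 0.109), from -0.49, -0.11 and -0.35. The 12 probes of nlp-28 did not speak with one voice. For 10 of them the mean ratio lay between -0.42 and -0.29, and for the other 2, A_12_P100104 and A_12_P165864, it was -0.01 and 0.00. The first of these had the highest mean signal of the 12 probes, 4598, and the second the lowest, 384.5. With the brightest probe standing for the gene, the ratio of nlp-28 was -0.01 in place of -0.32. This split of the probes was made after their values were seen and is given as a description. Probe sequences were not used here, so cross-hybridisation between the similar genes of these families was not tested.

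The best known gene of the group, nlp-29, is the usual reporter of epidermal infection and injury. Its level was 2960, 2699 and 2540 in isp-1 and 3496, 3571 and 2527 in the double mutant. Replicates 1 and 2 were higher in the double mutant and replicate 3 was level, and the groups overlapped. The log2 ratios of nlp-29 were 0.24, 0.40 and -0.01 (mean 0.21, SD 0.21, 95% interval -0.07 to 0.50, limma adjusted p = 0.235). All 5 of its probes had a positive mean, from 0.13 to 0.24, none past the threshold.

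The 3 remaining genes of the cluster each rest on 1 probe. For nlp-30 the level was 3191, 2819 and 3490 in isp-1 and 3242, 3817 and 3199 in the double mutant, with log2 ratios of 0.02, 0.44 and -0.13 (mean 0.11, SD 0.29, adjusted p = 0.569 in limma). For nlp-31, whose peptide has antifungal activity in vitro, it was 4293, 3090 and 4174 against 4249, 5486 and 4770. Its mean ratio of 0.34 (SD 0.44, adjusted p = 0.212 in limma) came mostly from replicate 2, at 0.83, with replicates 1 and 3 at -0.02 and 0.19. For both genes replicate 2 gave the highest ratio.

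For nlp-34 the level was 666.1, 758.6 and 1163 in isp-1 and 879.2, 828.3 and 937.5 in the double mutant, and the replicates ran in different directions, at 0.40, 0.13 and -0.31 (mean 0.07, SD 0.36, limma adjusted p = 0.747). The arrays of replicate 1 gave 0.67 and 0.13 for nlp-34, a difference of 0.55 for the same RNA. Over all genes tested the median difference between those arrays was 0.31.

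**Figure D2:**
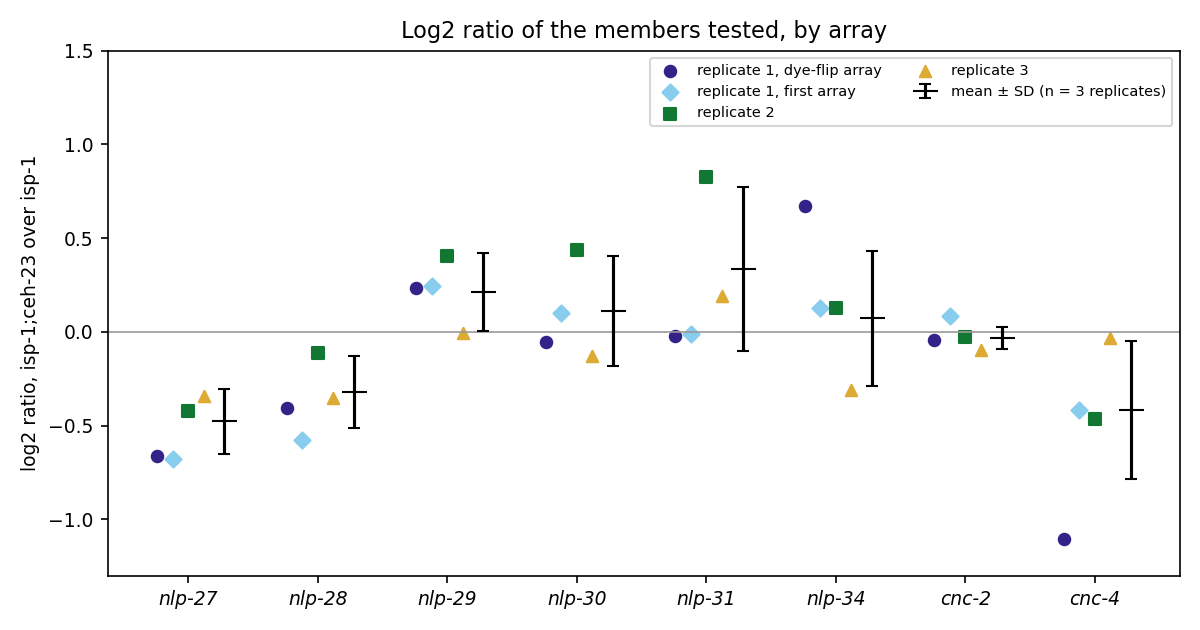
Log2 ratio of isp-1;ceh-23 over isp-1 (y axis) for the 8 members tested, with 1 symbol for each array and, to the right, the mean ± SD over 3 replicates. All 4 arrays lie below 0 for nlp-27, nlp-28 and cnc-4, and the arrays of the other 5 genes fall on both sides of 0; the dye-flip array stands lowest for cnc-4, at -1.104, and highest for nlp-34, at 0.67.

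Among the caenacins, cnc-4 had a level of 2072, 2399 and 2981 in isp-1 and 1224, 1742 and 2920 in the double mutant. It was lower in each replicate by very different amounts, -0.76, -0.46 and -0.03 on the log2 scale (mean -0.42, SD 0.37, limma adjusted p = 0.115), and the groups overlapped. Its single probe read -1.104 with the dyes flipped in replicate 1 and -0.42 on the first array, the widest gap between those arrays of the 8 genes at 0.69. Replicate 3 of cnc-4 had the highest signal in both genotypes and almost no difference between them.

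The gene cnc-2, the caenacin known as a target of DBL-1 signalling, had the smallest SD of the 8 genes. Its level was 215.1, 194.7 and 253.9 in isp-1 and 218.4, 190.9 and 237.5 in the double mutant, with ratios of 0.02, -0.03 and -0.10 and a mean of -0.03 (SD 0.06, 95% interval -0.27 to 0.20, adjusted p = 0.813 in limma). The means of its 6 probes lay between -0.12 and 0.01. No difference beyond the spread was found for cnc-2. Its probes read between 101 and 299 before background correction, over local backgrounds of 34 to 67.5, the lowest signal of the 8 genes. With no offset in the background correction the ratio was -0.04. So near background, a ratio and its SD can come out too small. The interval therefore limits the measured ratio to 0.27 on the log2 scale and does not bound the difference in RNA.

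The remaining 2 caenacin genes gave no usable signal. The cnc-1 probe read between 41 and 101 before background correction, over local backgrounds of 37 to 65, and the cnc-6 probe between 46 and 126, over 43 to 65. Neither was well above background on any array in either genotype, so no ratio is given for cnc-1 or cnc-6. This limit is one of signal and does not show that the transcripts were absent.

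**Figure D3:**
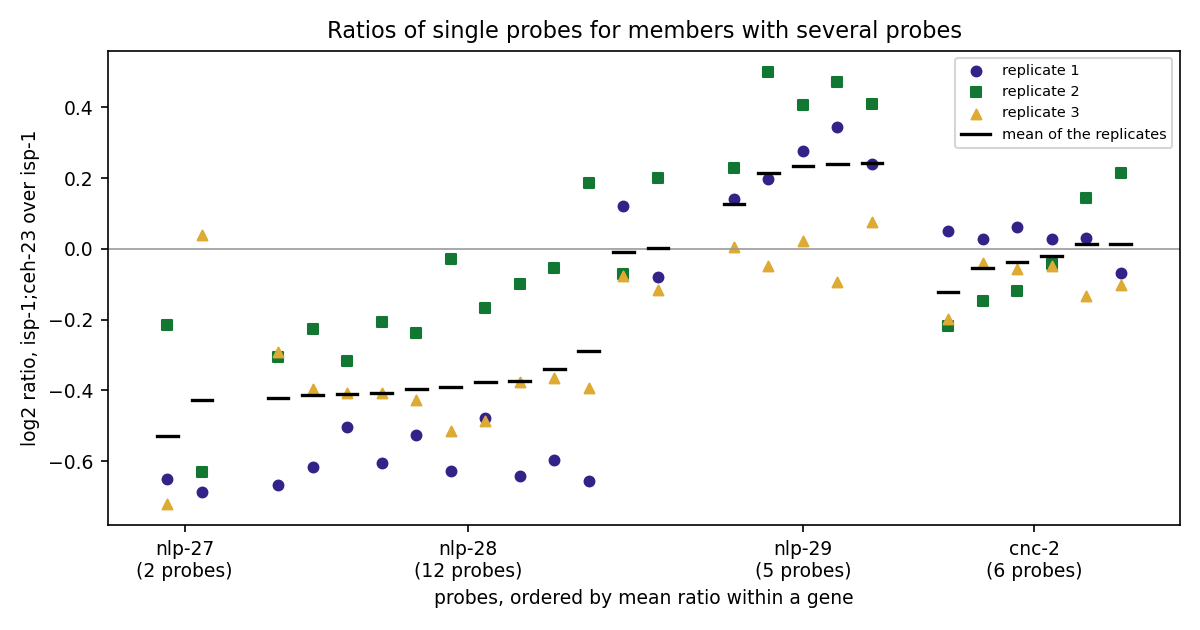
Log2 ratio of isp-1;ceh-23 over isp-1 (y axis) for single probes of the 4 members with several probes, with 1 symbol for each replicate and a bar for the mean of 3 replicates. The 2 probes of nlp-27 and 10 of 12 of nlp-28 have means below -0.28, the other 2 of nlp-28 lie at 0, the 5 of nlp-29 lie above 0, and the 6 of cnc-2 lie between -0.12 and 0.01.

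Fitted by probe, none of the 29 member probes passed, against 2056 of 25839 probes, or 7.96%. Chosen after their values were seen, and so given with no test, the following contrasts describe the arrangement of the genes. In the order of the RefSeq gene table the nlp genes follow each other on chromosome V without interruption as nlp-34, nlp-31, nlp-30, nlp-29, nlp-28 and nlp-27. The first 4 had positive means and the last 2 negative ones. Of the 4 positive means, that of nlp-34 turned to -0.09 without replicate 1 and to -0.019 with the first array of that replicate alone, and that of nlp-30 turned to -0.05 without replicate 2. In replicate 3 the mean of the 4 was -0.06. Within an array the mean of nlp-27 and nlp-28 stood below that of the other 4 by -0.74, -0.72 and -0.28 in replicates 1, 2 and 3 (mean -0.58, SD 0.26). Between nlp-27 and nlp-29 the difference was -0.91, -0.83 and -0.33.

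A second run on chromosome V holds cnc-11, cnc-1, cnc-5, cnc-4, cnc-3 and cnc-2. There cnc-4 stood below its neighbour cnc-3 by -1.18, -1.33 and -0.47 on the log2 scale (mean -0.99, SD 0.46). The gene cnc-6 lies on chromosome III.

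**Figure D4:**
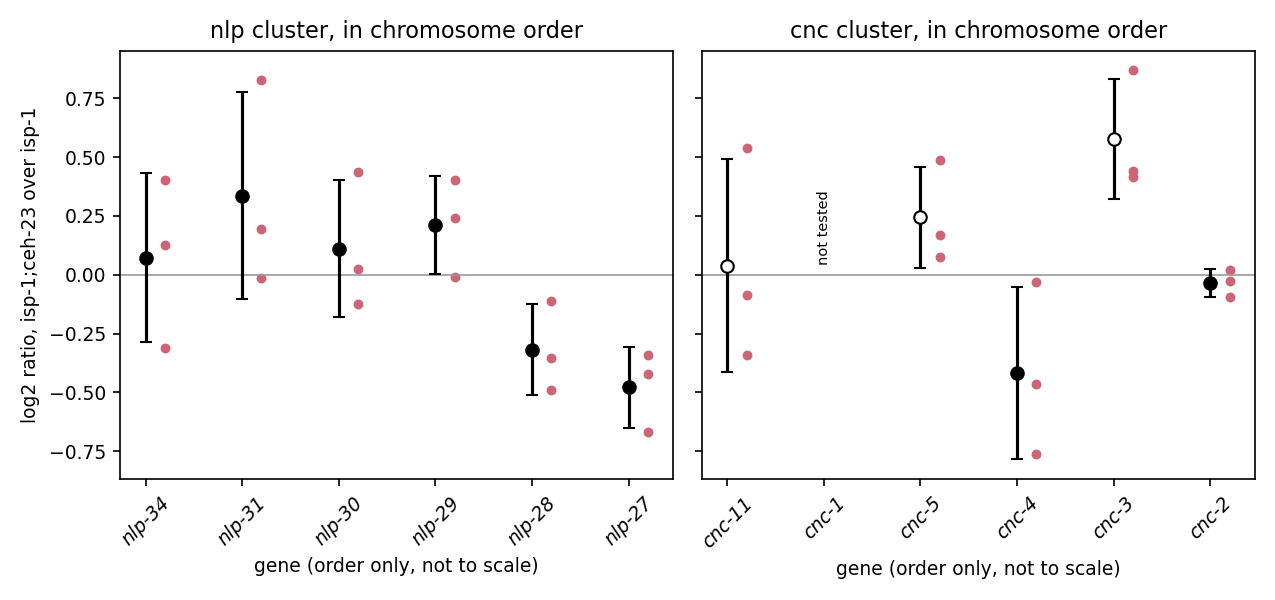
Log2 ratio of isp-1;ceh-23 over isp-1 (y axis) of the genes of the nlp run and the cnc run on chromosome V, in chromosome order and not to scale, as mean ± SD over 3 replicates with the replicates as small red points; filled circles are members and open circles are relatives. Of the nlp genes 4 have positive means and nlp-28 and nlp-27 negative ones, cnc-4 at -0.42 lies beside cnc-3 at 0.57, and cnc-1 was not tested.

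The relatives outside the group were 12 other glycine-rich nlp and cnc genes, of which 10 could be tested and none passed. Their median log2 ratio was 0.16, with 8 above 0, as were 6609 of the 13685 genes tested. Closest to the threshold was nlp-26, with levels of 5575, 6024 and 4906 in isp-1 and 3309, 3499 and 3855 in the double mutant. These levels of nlp-26 did not overlap between genotypes (log2 ratio -0.63, SD 0.24, limma adjusted p = 0.0501). For cnc-3 the level was 2314, 1938 and 2758 in isp-1 and 3085, 3539 and 3744 in the double mutant. These levels did not overlap either (log2 ratio 0.57, SD 0.25, limma adjusted p = 0.0553). The share of all genes without such overlap was not counted, so it does not set nlp-26 and cnc-3 apart. Both had one sign on all 4 arrays, as did 46.2% of all genes. Fitted by probe, the single probes of nlp-26 and cnc-3 passed, with adjusted p = 0.0377 and 0.0444 in limma. In that fit 7.96% of all probes passed, against 3.37% of genes in the fit by gene. Each of these genes has a single probe, so both fits used the same values and the pass is no second measurement.

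The other relatives had smaller ratios. Below 0 was nlp-25 at -0.29 (SD 0.18), and above it were cnc-10 at 0.30 (SD 0.25), nlp-33 at 0.26 (SD 0.10), cnc-5 at 0.24 (SD 0.22) and cnc-8 at 0.21 (SD 0.13). Nearer 0 were nlp-24 at 0.11 (SD 0.13), cnc-11 at 0.04 (SD 0.45) and cnc-9 at 0.01 (SD 0.11), and the signs of these 3 turned under other settings. Leaving out replicate 1 moved nlp-25 to -0.19 and cnc-10 to 0.18, and leaving out replicate 2 moved cnc-5 to 0.12. With the scanner's own ratios nlp-33 was at 0.14, cnc-5 at 0.41 and cnc-10 at 0.46. The probes of nlp-32 and cnc-7 did not pass the filter on dim probes.

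Genes known to act on these peptides were examined next. Of 16 genes of the epidermal p38 pathway, 15 were tested and none passed (median log2 ratio 0.19, 13 above 0). Over all genes tested, 6609 of 13685 were above 0. The smallest p-values were those of egl-8, a phospholipase C, at 0.33 (SD 0.15, adjusted p = 0.0897 in limma) and of tir-1, the adaptor upstream of the kinase cascade, at 0.40 (SD 0.26, adjusted p = 0.0922 in limma). All 9 genes of the DBL-1 pathway were tested with positive means and none passed (median 0.25). The smallest p-values there were those of sma-3, a receptor-regulated Smad, at 0.49 (SD 0.18, limma adjusted p = 0.057) and of sma-6, a type I receptor, at 0.45 (SD 0.43, limma adjusted p = 0.122).

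Cuticle collagens and other genes whose loss raises nlp-29 numbered 9, of which 7 were tested and none passed, with a median of 0.56 and 6 above 0. The collagen genes dpy-8 and dpy-9 had ratios of 0.56 (SD 0.16, limma adjusted p = 0.0501) and 0.74 (SD 0.43, limma adjusted p = 0.0576). Another collagen gene, dpy-3, lay below 0, at -0.46 (SD 0.19, limma adjusted p = 0.0627). In the response to high salt 1 of 4 genes tested rose, hmit-1.1, an inositol transporter, by 0.64 (SD 0.11, limma adjusted p = 0.0494). A list of 12 intestinal immunity genes held response genes and atf-7, a transcription factor that acts downstream of PMK-1, and none passed (median 0.02). Among them clec-60 and clec-85, both C-type lectins, had ratios of 0.48 and -0.54 (limma adjusted p = 0.053 and 0.0713).

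**Figure D5:**
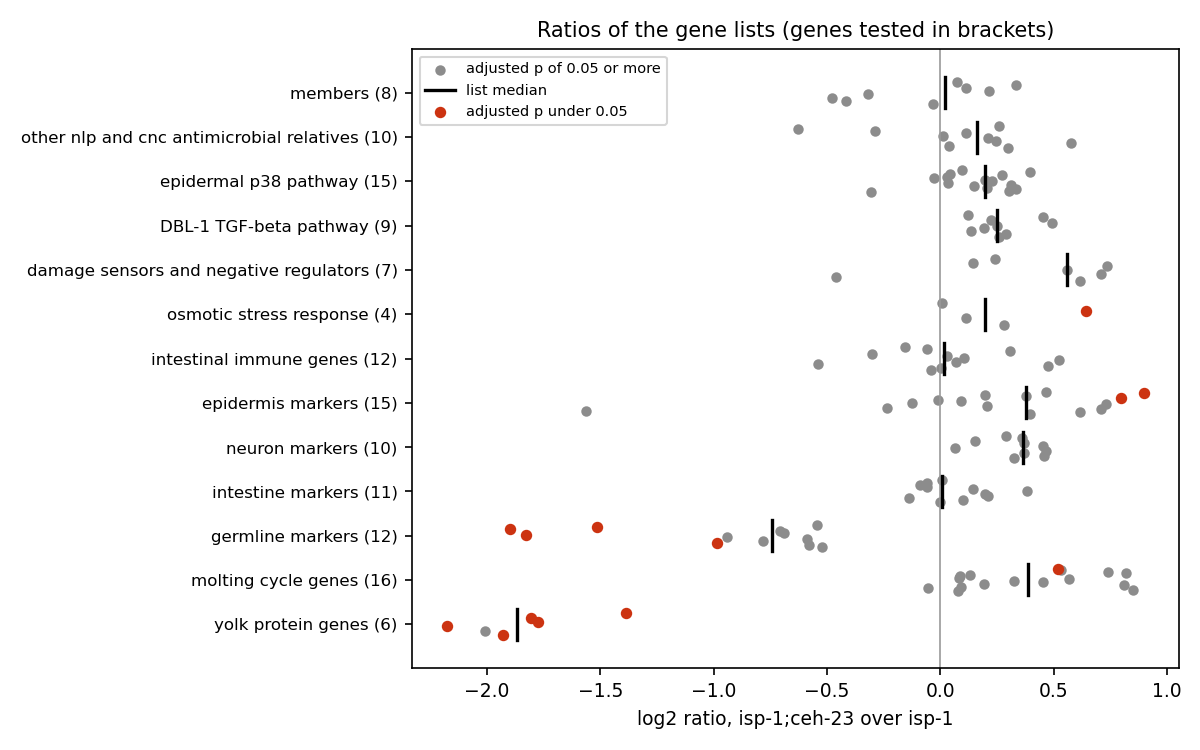
Log2 ratio of isp-1;ceh-23 over isp-1 (x axis) of the tested genes of each list (1 point a gene, mean of 3 replicates), with the list median as a bar and genes at an adjusted p under 0.05 in red. The antimicrobial peptide genes straddle 0 with no red point, the germline and yolk genes lie below 0 with medians of -0.74 and -1.87, and epidermis and molting genes lie mostly above 0.

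Some markers of the tissues in the RNA passed the threshold. Of 15 tested epidermis markers 2 rose, the nuclear receptor gene nhr-25 by 0.79 (SD 0.15, limma adjusted p = 0.0494) and the hedgehog-related gene wrt-10 by 0.90 (SD 0.42, limma adjusted p = 0.0499). The median of the 15 was 0.38, with 11 above 0, against 6609 of 13685 for all genes tested. The range ran from -1.56 to 0.90. At its low end the adult collagen col-19 just missed the threshold (SD 0.87, limma adjusted p = 0.0501). Also below 0 were elt-1 at -0.23, lin-26 at -0.12 and nhr-23 at -0.01. For nhr-25 the ratio was 0.48 with no filter on dim probes, where it did not pass, and 1.25 with the scanner's own ratios. Of 16 molting cycle genes 1 rose, the hedgehog-related qua-1, by 0.52 (SD 0.05, limma adjusted p = 0.0494), and the median was 0.39. No pan-neuronal gene of 10 passed, though all 10 were above 0 (median 0.36). Of these, egl-3, a neuropeptide convertase, and ric-4, a synaptic SNAP-25, were at 0.46 and 0.47. No intestine gene of 11 passed (median 0.01, 7 above 0, range -0.14 to 0.38). The smallest p-values were those of ges-1, a gut esterase, at 0.38 and of the GATA factor elt-2 at 0.21. On the arrays of replicate 1, ges-1 read -0.001 with the dyes flipped and 0.79 on the first array.

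Germline genes stood lower: 4 of 12 fell (puf-5, glh-2, spn-4 and nos-2, RNA-binding proteins or an RNA helicase of germ cells and oocytes, with ratios of -1.90, -0.98, -1.51 and -1.83, each at a limma adjusted p of 0.0494), all 12 were below 0, and the median was -0.74. Of 6 yolk genes 5 fell, vit-1, vit-3, vit-4, vit-5 and vit-6, and the median was -1.87. The remaining yolk gene, vit-2, just missed the threshold at -2.01 (SD 1.12, limma adjusted p = 0.0501). Each of the 13 genes of these lists that passed lost its call in 5 to 8 of 20 other settings. The double mutant and isp-1 were each sampled at 1 stage, so genotype and developmental timing cannot be told apart, and the part that these shifts play in the values of the antimicrobial peptide genes was not tested.

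By the distance between log2 ratios on the 4 arrays, the genes most like the mean of the 8 members were K03H1.11, catp-3, cpd-2, flad-1 and oac-54, at root-mean-square distances of 0.0158, 0.0239, 0.0241, 0.0407 and 0.0447 among 13677 genes compared. The mean profile they match is shallow, at -0.17 with the dyes of replicate 1 flipped, -0.14 before that flip, and 0.10 and -0.13 for the remaining replicates. The members themselves lay farther from it, from 0.15 for cnc-2 to 0.56 for cnc-4. Distances of the nearest genes depended on the setting. With median centring K03H1.11 lay at 0.27 and cpd-2 at 0.13, while flad-1 stayed at 0.05. With the brightest probe catp-3 lay at 0.13.

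Leaving out replicate 3 changed the calls of 3 members. Without it nlp-27 passed at -0.55 (limma adjusted p = 0.00365), nlp-29 at 0.32 (limma adjusted p = 0.0382) and cnc-4 at -0.61 (limma adjusted p = 0.00228), but so did 43.3% of all genes. Replicate 3 shared a slide and a scan with replicate 2, and both arrays of replicate 1 were on another slide. The double mutant was in Cy5 in replicate 2 and in Cy3 in replicate 3, so leaving out replicate 3 also left the dyes unbalanced. Within the slide of replicates 2 and 3 the ratios were -0.38 for nlp-27, 0.20 for nlp-29 and -0.25 for cnc-4, of which none passed.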

How the data were processed

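Per the labels' protocols, total RNA extracted in Tri-reagent was cleaned on RNeasy columns, and 100 ng of it was linearly amplified into labelled cRNA. Per the file headers, the authors quantified the arrays with Agilent Feature Extraction 10.5.1.1, protocol GE2_105_Dec08, on a design of build ce4. The deposited scanner files give the median intensity of spot and local background in each channel, not normalized, together with other columns of flags (0 or 1) and a log10 ratio of Cy5 over Cy3. The deposited series table repeats that log10 ratio to within 0.005 and has a median of 0 on each array.

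In R 4.3.3 with limma 3.58.1, median intensities were corrected by normexp (offset 50) and normalized by loess within each array, with control and outlier spots at weight 0 and outlier spots left out. For the levels alone, average intensities were then quantile normalized between arrays, a step that leaves the ratios as they were. Ratios were oriented with the double mutant as numerator; per the labels its dye was Cy5 on the dye-flip array and in replicate 2 and Cy3 on the others. A probe was retained where 1 same genotype was well above background in all 3 replicates. The planned wording allowed other readings of this filter; 3 were tried, and this one was settled after the call counts of all 3 (461, 632 and 701) had been seen, because it matched earlier processing of these data. Gene names came from a RefSeq table on assembly WBcel235, a different build, used for names and gene order only: 35017 of 43803 spots matched by sequence name and 356 by accession. Kept probes of a gene were averaged, replicate 1 became the mean of its arrays, and the 3 values of a gene were set against 0 in lmFit and eBayes (two-sided test, Benjamini-Hochberg over 13685 genes, threshold 0.05). The loess and limma steps were also run on simulated arrays, with planted ratios larger in size than any measured for the members. That run does not show how small ratios fare.

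The members and gene lists were chosen with earlier results of these data known. Genes named were the members, the relatives and the 5 nearest profiles. Of each other list, those past the threshold or else the 2 smallest p-values were named. The genes col-19, elt-1, lin-26, nhr-23, dpy-3 and vit-2 were added after their values were seen. The number of arrays limits the precision. In 18 other settings the fit was repeated with a change of background correction, normalization, filters, probe rule, moderation, dye, slide, array or replicate.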

Additional observations from a re-analysis of the deposited data

How the results depend on the processing

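The count of antimicrobial peptide genes past the threshold was 0 under 15 of the 18 other settings. It was 1 with trend and robust moderation (nlp-31, limma adjusted p = 0.0471, where 13.8% of all genes passed), 1 with dye as a covariate (nlp-27, adjusted p = 0.0282, 30.3%), and 0 to 3 with a replicate left out. Signs held under all 18 for nlp-27, nlp-28, nlp-29, nlp-31, cnc-2 and cnc-4. The median of the members ran from -0.077 to 0.11 with a replicate left out. The count of all genes, 461, was 1491 with an offset of 0, 2 with no background correction, 0 with median centring (1481 genes in limma at an unadjusted p of 0.05), 1734 with scanner ratios, 1736 with the series table, 1 with no filter, 755 with a strict filter, 1 with outlier spots kept, 963 with the brightest probe, 1889 with trend and robust moderation, 4151 with dye as a covariate, 733 and 777 with the dye-flip or first array of replicate 1 alone, 1264 with slide as a block, and 1 to 5939 with a replicate left out. Genes of the other lists past the threshold, 13, were in the same order 33, 0, 0, 29, 29 and 0 up to no filter, then 0 with outlier spots kept, 27 with the brightest probe, 49 with trend and robust moderation, 60 with dye, 22 with the first array alone, 25 with slide and 0 to 67 with a replicate left out. The sign of nlp-34 turned with the first array alone (-0.019), of nlp-24 with the brightest probe (-0.039), and of cnc-11 with the first array alone (-0.051). For cnc-9 it turned with no background correction (-0.022), median centring (-0.017), scanner ratios (-0.00265), the series table (-0.00233), no filter (-0.0043) and the first array alone (-0.042). With a replicate left out, nlp-34 ran from -0.092 to 0.26, nlp-30 from -0.051 to 0.23, cnc-9 from -0.033 to 0.075 and cnc-11 from -0.21 to 0.23. The cause of these turns was not tested.

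Added after seeing the data, the other readings of the dim-probe filter (either genotype above background in each replicate, with or without outlier spots counted) gave 632 and 701 calls over all genes and 0 members, and a fit by probe gave 0 members. Each ratio sets both genotypes of a replicate on the same array, so the fit against 0 is already a paired one, and no second group shares the replicate numbers for a further block.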
